A study of Homo sapiens with 6 samples.

Results

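The genes of T-cell receptor (TCR) proximal signaling were examined in a B-cell lymphoma line cultured with or without IL-17A. The 10 genes were CD3D, CD3E and CD3G (chains of the receptor complex), CD4 and CD8A (coreceptors), CD2 and CD28 (adhesion and costimulatory receptors), LCK and ZAP70 (kinases) and LAT (a membrane adaptor). They were chosen by their known role in T cells and by the bright signals of LCK and CD4 on these arrays. The brightness of LCK and CD4 is therefore given as a description. The rule of choice named no difference between IL-17A and control, but earlier results of these data were known when the genes were chosen. The 10 genes were among 19740 genes that the arrays' probes could be named for, and all 10 were among the 14747 genes that were tested. They were measured by 13 probes, of which 12 were tested, and the dimmer of the CD28 probes was not well above background on any array.

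SU-DHL-2 is an established line of human diffuse large B-cell lymphoma. RNA from 3 samples cultured with IL-17A (200 pg/ml, 72 h) and from 3 control samples cultured without it was hybridized with the dye Cy3 to whole genome arrays of 1 colour, with 1 array for each sample. The labels name no other agent or genetic change, and they do not say whether the 3 samples of a group came from separate cultures, so that p-values measure only the spread between these samples, which may be technical. The samples are bulk RNA, in which fewer cells of a type and less RNA per cell cannot be told apart.

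In T cells, the CD3 chains carry the signal of the antigen receptor into the cell. LCK, a SRC family kinase held near the receptor by the coreceptors CD4 and CD8, phosphorylates the CD3 tails, to which ZAP70 then binds. ZAP70 phosphorylates LAT, which gathers adaptors and effectors such as LCP2 and PLCG1 at the membrane, while CD28 and CD2 add costimulation and adhesion through CD80 and CD86 and through CD58. B cells use a related chain of events, with CD79A and CD79B in place of CD3 and SYK in place of ZAP70.

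Signals are given as log2 of the quantile normalized intensity, and the lowest signal that counted as well above background was 3.62 to 4.32 on the linear scale across the 6 arrays. Between 23580 and 24079 of 34127 probes were detected per array, and no spot was saturated. IL-17A replicate 1 and the 3 controls shared a scan time, and the remaining IL-17A arrays shared another. These scan-time groups were taken as the slides, which is an inference. Slide and treatment therefore overlapped in part, and a fit with slide as a block rests on IL-17A replicate 1 against the controls alone. A gene was called at a fold change of at least 1.5 with an unadjusted p under 0.05. By this rule 283 of 14747 genes (1.92%) were called, 120 higher and 163 lower with IL-17A, and with each array scaled to its 75th percentile the split was 82 higher and 239 lower.

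The labelled cell type was checked against marker lists. All 12 B-cell markers, among them MS4A1 and PAX5, were well above background on all 6 arrays. Their summed signal was 58498 to 61377 with IL-17A and 59299 to 59902 in the controls. PAX5 was the dimmest of the 12, at a mean signal of 14.4 (IL-17A) and 12.7 (control). In both groups it lay below the T-cell genes CD3G, CD3D and CD7 and the monocyte markers CD14, ITGAM and FCN1, and above CD2 and CD3E. Of 17 T-cell markers, a list that holds the 10 genes described here, 14 were tested. CD5 and TRAT1 were well above background on no array, and BCL11B on 1 control array. The T-cell genes CD7 and CD247 were well above background on all 6 arrays. Mean signals on the IL-17A arrays were 53.3 for CD7 and 25.1 for CD247, and on the control arrays 51.3 and 24.6. No probe could be named for the receptor's own constant chains TRAC, TRBC1 and TRBC2. The summed signal of the T-cell list was 3114 to 3132 with IL-17A and 3137 to 3424 in the controls. Its largest parts were LCK (mean signal 1268 with IL-17A and 1260 in the controls) and CD4 (891 and 1106), the genes known to be bright. The next largest were LAT (360 and 319) and TCF7 (282 and 258). Their differences were 0.17 and 0.13 on the log2 scale (limma adjusted p = 0.054 and 0.143), and neither was called. The sum therefore mostly follows these genes and does not describe the T-cell markers as a set. Of 8 NK-cell markers 5 were tested, with a summed signal of 85.9 to 110 against 104 to 112. KLRC1, NKG7, GNLY and NCR1 were well above background on all 6 arrays, and KLRC1 was the brightest (mean signal 47.7 and 43.2). NCAM1 and KLRD1 were well above background on no array. NCR1, a receptor of NK cells, was the only called gene of the B-cell, NK-cell, monocyte and mesenchymal lists, with a difference of −0.67 on the log2 scale (limma adjusted p = 0.145), and its part in the results on CD28, CD8A, CD3E and CD2 was not tested. Of 10 monocyte markers 3 were tested, with a summed signal of 138 to 149 against 155 to 202. These were CD14, ITGAM and FCN1, all well above background on all 6 arrays. Their mean signals were 32.9, 58.7 and 51.5 with IL-17A and 34.4, 76.8 and 62.7 in the controls. CSF1R, CD163, S100A8 and S100A9 were well above background on no array. Of 7 mesenchymal markers 2 were tested, with a summed signal of 16.3 to 21.0 against 14.5 to 23.2. COL1A1 was well above background on all 6 arrays and PDGFRB on 2 arrays of each group. COL1A2, COL3A1, DCN, LUM and THY1 were well above background on no array.

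RefSeq promoter windows (GRCh38.p14, the 250 bases before a transcript start) were matched for 7 of the 10 genes, with 14 windows in all. CD4, CD3E and CD3G had no entry. The windows of LCK are shown because its mRNA was bright in these B cells and because the gene has separate starts, and those of CD2 and CD3D are shown beside them as genes of T-cell surface receptors. Capitals mark GGAAGT (the letters of an ETS motif) and TGTGGT (a RUNX motif), and every window is written 5′ to 3′ on the strand of its gene. The first is LCK chr1:32251015-32251264 (plus strand), the second LCK chr1:32273871-32274120 (plus strand), then CD2 chr1:116754180-116754429 (plus strand) and CD3D chr11:118342706-118342955 (minus strand).
LCK upstream start: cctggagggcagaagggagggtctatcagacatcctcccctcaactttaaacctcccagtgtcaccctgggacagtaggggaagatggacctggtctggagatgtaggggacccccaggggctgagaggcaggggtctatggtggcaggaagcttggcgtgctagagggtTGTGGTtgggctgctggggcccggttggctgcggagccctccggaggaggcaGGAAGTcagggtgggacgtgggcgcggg
LCK downstream start: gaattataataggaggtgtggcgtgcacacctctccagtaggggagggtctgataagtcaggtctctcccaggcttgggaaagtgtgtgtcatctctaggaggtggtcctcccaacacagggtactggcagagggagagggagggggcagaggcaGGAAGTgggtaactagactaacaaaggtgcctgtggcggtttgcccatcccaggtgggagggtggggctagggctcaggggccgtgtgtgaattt
CD2: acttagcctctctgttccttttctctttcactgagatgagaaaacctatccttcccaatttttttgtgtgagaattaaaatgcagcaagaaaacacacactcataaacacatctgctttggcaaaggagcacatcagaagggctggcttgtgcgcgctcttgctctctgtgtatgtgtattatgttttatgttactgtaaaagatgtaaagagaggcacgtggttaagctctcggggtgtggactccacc
CD3D: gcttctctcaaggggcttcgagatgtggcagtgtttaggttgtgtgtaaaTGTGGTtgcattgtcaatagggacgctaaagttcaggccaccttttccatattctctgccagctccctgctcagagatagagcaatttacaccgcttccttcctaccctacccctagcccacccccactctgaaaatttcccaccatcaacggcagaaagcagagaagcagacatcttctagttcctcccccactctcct

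The upstream LCK window held the RUNX letters, first base 80 bases before the start, and the ETS letters at 28 bases. The downstream LCK window held the ETS letters at 95 bases. The RUNX letters were also in the CD3D window, at 200 bases, and in the CD28 window, at 109 bases. Of 35116 windows of the same length 19.5% held the ETS letters and 11% the RUNX letters on either strand.

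A further 4 motifs were searched on both strands. The E-box CAGCTG, which 14% of all windows held, was found in windows of CD8A, ZAP70 and LAT. The GATA motif AGATAA, in 9.17% of all windows, was in none of the 14. The kappaB motif GGGANTTTC was held by 1.12% of all windows and by none of the 14. The same was true of the cyclic AMP response element TGACGTCA, with 1.65% of all windows. The CD2 window held none of the 6 motifs. A match is a description of these letters and not a binding site.

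LCK gave a strong signal in every sample. Its brighter probe read 10.36, 10.26 and 10.31 on the IL-17A arrays and 10.35, 10.31 and 10.23 on the control arrays (log2 signal), which is 310 times the detection limit with IL-17A and 318 times in the controls. The groups overlapped, and the difference was 0.01 on the log2 scale (SE 0.05, 95% confidence interval −0.11 to 0.13, limma adjusted p = 0.916). The dimmer LCK probe read 10.13, 9.86 and 9.95 with IL-17A and 9.95, 9.90 and 9.90 in the controls, with a difference of 0.07 (SE 0.08, limma adjusted p = 0.589). IL-17A replicate 1 was the highest of the 6 arrays on this probe, and the estimate with slide as a block was 0.22, at an unadjusted p under 0.05.

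The brighter LCK probe was printed 10 times on each array, which gives the error of a single spot. The SD of log2 intensity over the 10 spots was 0.0336 to 0.0538 per array. Before normalization, the median intensities were 1314, 1287 and 1259 on the IL-17A arrays and 1378, 1191 and 1172 on the control arrays. Control replicate 1 was the brightest array, above all 3 IL-17A arrays, and the other control arrays were the dimmest. The SD between the normalized arrays, each a mean over its 10 spots, was 0.05 with IL-17A and 0.06 in the controls.

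**Figure D1:**
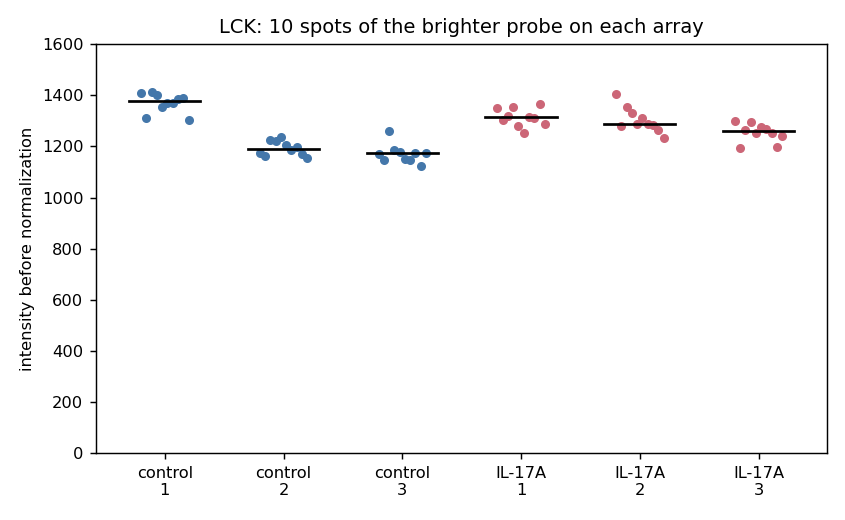
Intensity of the 10 spots of the brighter LCK probe on each array before normalization (linear axis, points are spots, lines are medians). The medians run from 1172 to 1378, and the control arrays lie on both sides of the IL-17A arrays.

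ZAP70, the kinase that acts after LCK, read 4.66, 4.47 and 4.75 with IL-17A and 4.60, 4.59 and 4.54 in the controls. The IL-17A arrays lay on both sides of the controls, and the difference was 0.05 (SE 0.08, limma adjusted p = 0.697). LAT, the adaptor that ZAP70 phosphorylates, read 8.45, 8.52 and 8.51 with IL-17A and 8.29, 8.32 and 8.34 in the controls. All IL-17A arrays were above all controls for LAT, by 0.17 or 1.13-fold (SE 0.04, limma adjusted p = 0.054). LAT was 88.0 times the detection limit with IL-17A and 80.5 times in the controls, and its difference had the smallest SE of the 10 genes. With slide as a block the LAT estimate was 0.13, at an unadjusted p over 0.05.

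CD4 was the other bright gene. It read 9.73, 9.86 and 9.80 with IL-17A and 10.24, 10.11 and 9.98 in the controls, at 218 and 279 times the detection limit. All 3 IL-17A arrays lay below all 3 controls, and the difference was −0.31, or 1.24-fold lower (SE 0.08, 95% confidence interval −0.51 to −0.12, limma adjusted p = 0.0669). On the linear scale these values are intensities of 851 to 932 with IL-17A and 1008 to 1212 in the controls. Without normalization between arrays the difference was −0.27, at an unadjusted p over 0.05. CD4 is also a gene of monocytes, and the monocyte markers CD14, ITGAM and FCN1 had differences of −0.07, −0.39 and −0.28, none of them called. Their part in the CD4 difference was not tested.

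CD8A, the other coreceptor, was read by 2 probes that disagreed. The brighter one, designed to another RefSeq transcript of the gene than the dimmer one, read 4.98, 5.15 and 4.70 with IL-17A and 5.32, 5.56 and 5.49 in the controls, without overlap. Its difference was −0.51, or 1.43-fold lower (SE 0.13, limma adjusted p = 0.068). The dimmer probe read 3.84, 4.00 and 4.01 with IL-17A and 4.02, 4.06 and 3.94 in the controls, where the groups overlapped and the difference was −0.06 (SE 0.06, limma adjusted p = 0.58). With slide as a block the estimate for the brighter probe was −0.47, at an unadjusted p over 0.05, and with normexp background correction it was −0.16 (limma adjusted p = 0.0729). A difference in CD8A therefore rests on 1 of its 2 probes.

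None of the 3 CD3 chains was called, and they were not tested against each other. CD3E read 2.87, 2.71 and 2.76 with IL-17A and 3.08, 3.32 and 3.30 in the controls, with every IL-17A array below every control. The CD3E difference was −0.46, or 1.37-fold lower (SE 0.08, limma adjusted p = 0.0401). CD3E stood only 1.68 times above the detection limit with IL-17A and 2.38 times in the controls, and with normexp background correction its difference was −0.05, at an unadjusted p over 0.05.

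CD3D read 4.98, 5.51 and 5.40 with IL-17A and 5.64, 5.14 and 5.42 in the controls. The groups overlapped, and the CD3D difference was −0.11 (SE 0.19, limma adjusted p = 0.729), with an interval from −0.57 to 0.36 that was the widest of the 10 genes. CD3G read 6.79, 6.78 and 6.69 with IL-17A and 6.59, 6.60 and 6.70 in the controls. For CD3G only control replicate 3 reached into the range of the IL-17A arrays, and the difference was 0.12 (SE 0.05, limma adjusted p = 0.17).

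CD28, the costimulatory receptor for CD80 and CD86, fell with IL-17A and was the only one of the 10 genes that was called. It read 4.32, 4.00 and 4.04 with IL-17A and 4.89, 4.73 and 4.88 in the controls, at 4.26 and 7.21 times the detection limit. The groups did not overlap, and IL-17A replicate 1 lay nearest to the controls. The CD28 difference was −0.71, or 1.64-fold lower (SE 0.10, 95% confidence interval −0.96 to −0.46, limma adjusted p = 0.0327), and with any 1 array left out it was −0.81 to −0.65. With slide as a block the difference was −0.51 (limma adjusted p = 0.0944) and with normexp background correction −0.16 (limma adjusted p = 0.0644), both under the fold threshold. The dimmer CD28 probe gave signals of 1.37 to 2.41, under the detection limit of every array, so that CD28 rests on 1 probe.

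CD2, the receptor for CD58, had a difference above 0 that was not called. It read 3.20, 3.19 and 3.09 with IL-17A and 2.42, 2.67 and 2.85 in the controls, without overlap. The CD2 difference was 0.51, or 1.43-fold higher (SE 0.11, limma adjusted p = 0.0539). CD2 was close to the detection limit, at 2.19 times with IL-17A and 1.58 times in the controls, and control replicate 3 lay nearest to the IL-17A arrays. Without that array the difference was 0.62 and CD2 passed both thresholds, while without control replicate 1 it was 0.40. With normexp background correction it was 0.07 (limma adjusted p = 0.16).

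**Figure D2:**
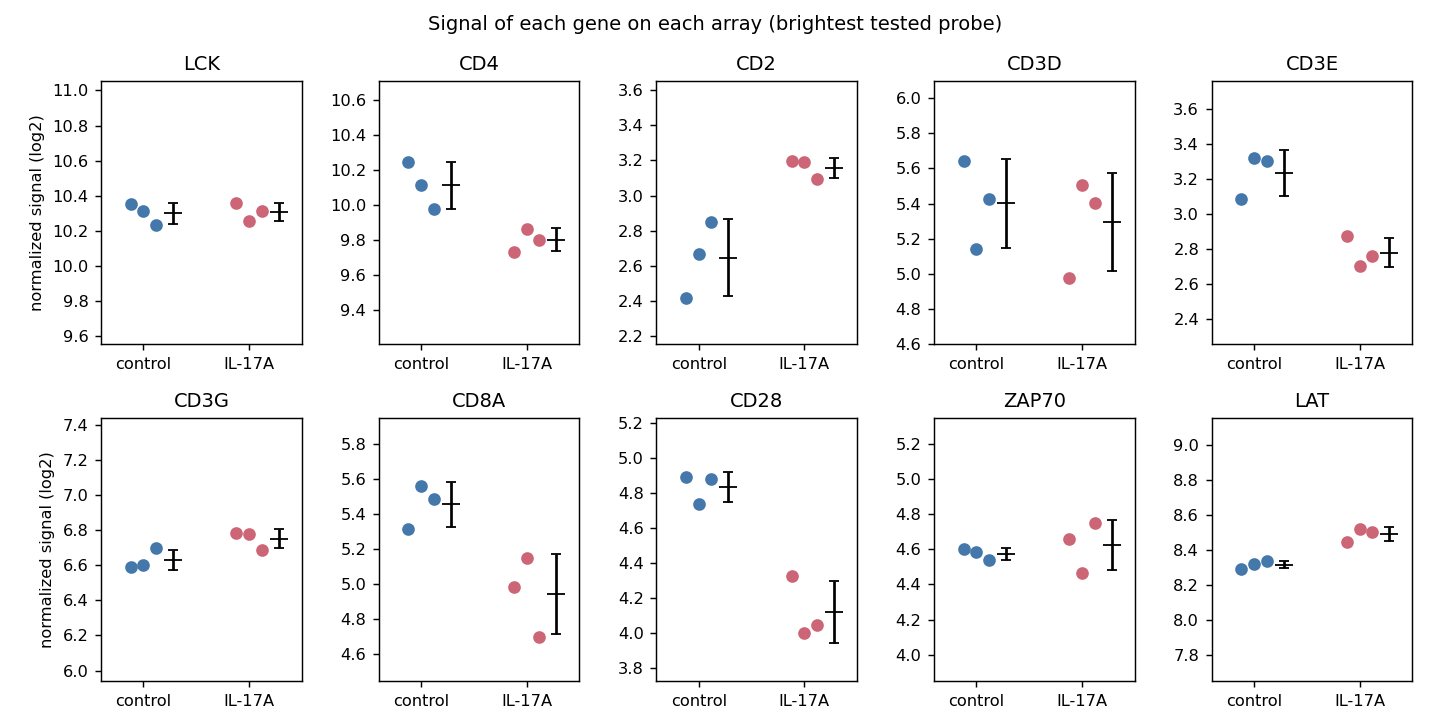
Normalized log2 signal of the brightest tested probe of each gene on the 3 control and the 3 IL-17A arrays (points are arrays, bars are mean and SD, and each panel has its own range). CD28, CD3E, CD8A and CD4 lay lower on all IL-17A arrays, CD2 and LAT lay higher, and LCK, ZAP70, CD3D and CD3G overlapped.

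Of the 10 genes, 1 was called, and it was lower with IL-17A, where the share over all tested genes was 1.11% for lower and 0.814% for higher calls. An adjusted p under 0.05 was reached by CD28 and CD3E, beside 7.85% of all tested genes. An unadjusted p under 0.05 was reached by 6 of the 10 (CD2 and LAT higher, CD4, CD3E, CD8A and CD28 lower), beside 31.8% of all tested genes, and in the same 6 the groups did not overlap, beside 40.7% of all. Over all 14747 tested genes, 2498 were higher and 2188 lower at an unadjusted p under 0.05. The median log2 difference was −0.05 over the 10 genes and 0.00 over all tested genes. Without IL-17A replicate 2 the called genes were CD28 and CD8A (−0.61 for CD8A), and without control replicate 3 they were CD28 and CD2. The adjusted p of CD3E passed 0.05 in the 6-array fit but in none of the fits with 1 array left out, and that of CD28 only without IL-17A replicate 1.

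**Figure D3:**
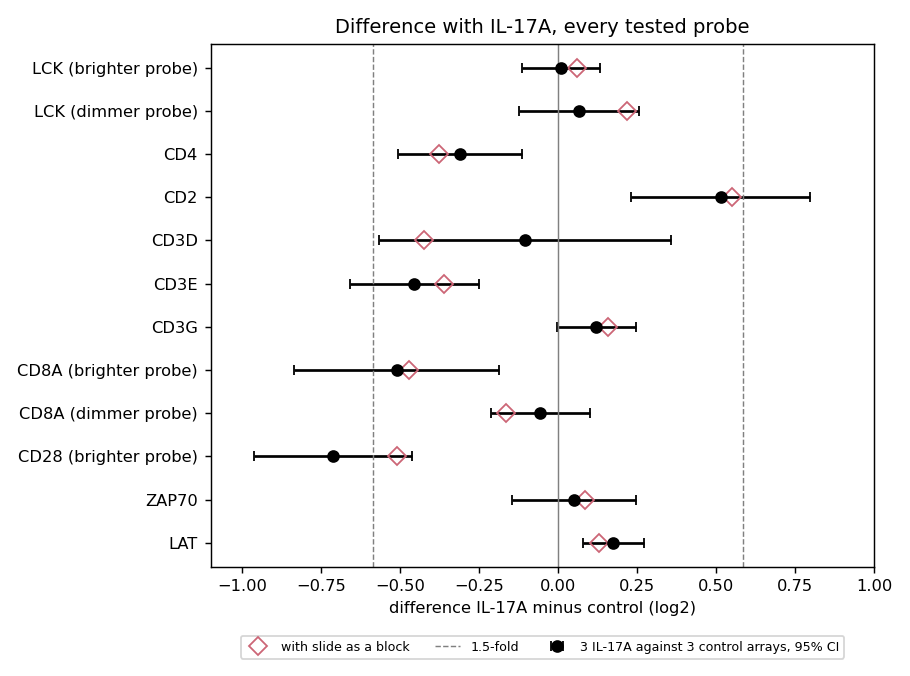
Difference of log2 signal between 3 IL-17A and 3 control arrays for the 12 tested probes (filled points with 95% confidence intervals), with the estimate that has slide as a block (open diamonds) and dashed lines at 1.5-fold. The CD28 point at −0.71 lies past the line and its slide-block estimate at −0.51 does not, and the LCK points lie near 0.

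Next, 93 further genes of the pathway were examined in lists by role, of which 70 were tested. Over these 70 genes, 37 differences were above 0 and 33 below. An unadjusted p under 0.05 was reached by 20 higher and 10 lower genes, or 30 in all, where the share over all tested genes was 31.8%. By direction, 2498 of all 14747 tested genes were higher and 2188 lower at that threshold. Of the 70 genes 3 were called, beside 1.92% of all, and 9 had an adjusted p under 0.05, beside 7.85% of all, with a median difference of 0.02. Both counts include LCP2, which passed the detection filter only through the IL-17A arrays. The counts of the single lists below are to be read against the same shares. Of the 23 genes not tested, 17 had a probe, 13 of them well above background on no array, and 6 had none.

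The adaptors held all 3 of the called pathway genes. LCP2, the scaffold that binds phosphorylated LAT through GRAP2, read 2.64, 2.88 and 2.71 with IL-17A and 1.78, 1.81 and 2.19 in the controls. LCP2 could be told from background on the 3 IL-17A arrays but on no control array, so it passed the detection filter only through the group where it is high. In the quantile normalized values LCP2 was at least 1.64-fold higher. The limma adjusted p of 0.0347 belongs to the difference of 0.81, taken with the controls' own signals, and not to this bound. With probes detected on all 6 arrays LCP2 was not tested and 2 pathway genes were called. Because of that filter, the adjusted p of LCP2 is not taken as support for a difference. SKAP1, an adaptor that links the receptor to integrin adhesion, read 3.03, 3.08 and 3.19 with IL-17A and 2.29, 2.45 and 2.40 in the controls. Its difference was 0.72 (SE 0.06, limma adjusted p = 0.0252), and the groups did not overlap. With normexp background correction the difference was 0.05 for LCP2 (limma adjusted p = 0.314) and 0.06 for SKAP1 (limma adjusted p = 0.191), and neither was called. In the series matrix table, where dim values share a floor, the difference was 0.53 for LCP2 and 0.52 for SKAP1, again under the fold threshold.

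SH2D2A, a T-cell adaptor that binds LCK, fell. It read 5.93, 5.37 and 5.65 with IL-17A and 6.32, 6.31 and 6.22 in the controls, with a difference of −0.63 (SE 0.14, limma adjusted p = 0.0553). Its IL-17A arrays were spread wide, and IL-17A replicate 1 lay nearest to the controls. The SH2D2A difference was −0.35 in the slide-block fit, −0.25 with normexp and −0.49 when IL-17A replicate 2 was left out, all under the fold threshold. Of the 20 tested adaptors 6 were higher and 4 lower at an unadjusted p under 0.05. GRAP, RHOH and LIME1 were not called but had a limma adjusted p under 0.05 (0.0311, 0.0313 and 0.0492). Their differences were 0.39, −0.54 and −0.29, and 0.37, −0.50 and −0.19 with slide as a block. Mean signals with IL-17A and in the controls were 206 and 157 for GRAP, 4321 and 6272 for RHOH, and 38.6 and 47.1 for LIME1.

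Among the other chains and coreceptors only 2 genes were tested, CD247 (the zeta chain) with a difference of 0.03 and CD8B with −0.29, and neither had an unadjusted p under 0.05. Of 9 tested surface receptors none was called, 1 was higher and 3 lower at an unadjusted p under 0.05. SLAMF6, a receptor of the SLAM family, had a difference of 0.26 (limma adjusted p = 0.0326), and PDCD1, the inhibitory receptor PD-1, had −0.35 (limma adjusted p = 0.0403). SLAMF1 had −0.42 (limma adjusted p = 0.085).

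Of the 12 tested kinases and phosphatases none was called, and 3 were higher and 2 lower at an unadjusted p under 0.05. PTPN22, a phosphatase that acts on LCK, had a difference of 0.17, PTPRC (CD45), which removes the inhibitory phosphate of LCK, had 0.14, and UBASH3B had 0.19, with limma adjusted p of 0.0625, 0.0965 and 0.108. Of the 14 tested downstream effectors 4 were higher and 0 lower at an unadjusted p under 0.05 by limma, and none was called. NFATC3 and NFATC2, transcription factors that calcium signals activate, both had a difference of 0.30, with limma adjusted p of 0.0513 and 0.113.

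The ligands of CD2, CD4 and CD28 were all well above background on every array, and none of the 5 was called. IL16, a ligand of CD4, had a difference of 0.34 (limma adjusted p = 0.054), and CD48, a SLAM family ligand, had 0.22 (limma adjusted p = 0.077). For CD86, a ligand of CD28, the difference was −0.05 (limma adjusted p = 0.615). Of the 8 tested T-lineage transcription factors 4 were higher and 1 lower at an unadjusted p under 0.05. RUNX3 had a difference of 0.18, ETS1 0.33 and IKZF1 −0.22, with limma adjusted p of 0.0458, 0.0475 and 0.0664.

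**Figure D4:**
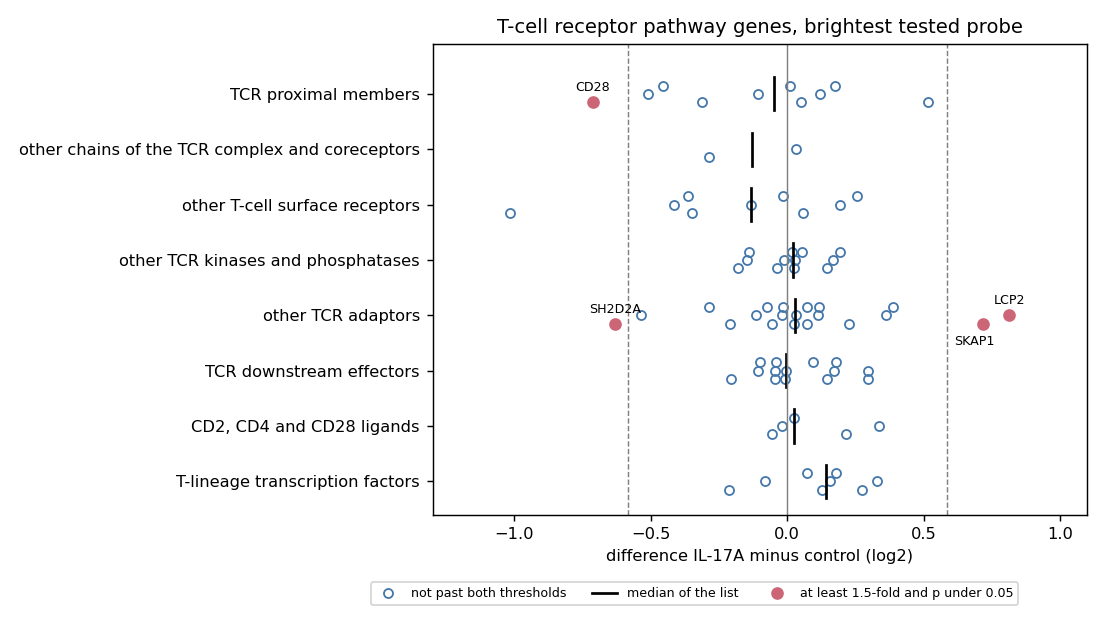
Difference of log2 signal for the 10 TCR proximal genes and the 70 tested pathway genes by list (points are genes, bars are list medians, filled points pass both thresholds). The called genes are CD28 and SH2D2A on the lower side and SKAP1 and LCP2 on the higher side, and the list medians run from −0.13 to 0.14.

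The genes whose pattern over the 6 arrays was most like that of LCK and CD4 were looked for among 101 genes of the lists. Likeness was the root mean square difference, on the log2 scale, between the deviations of the genes from their own means. For LCK the nearest were CD79B (0.0205), a B-cell receptor chain, SYK (0.0279), the B-cell kinase of the ZAP70 family, and SIT1 (0.0303), a membrane adaptor. For CD4 they were SLAMF1 (0.081), LIME1 (0.092) and FYN (0.0962). LCK itself deviated by 0.0456 and CD4 by 0.178, so that the LCK neighbours are genes with little spread on these arrays.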

How the data were processed

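Expression of 10 TCR proximal genes was analysed on 6 arrays of SU-DHL-2 cells, grouped by their titles. The authors extracted spots with Agilent Feature Extraction 11.0.1.1, and their deposited scanner files hold background-subtracted intensities, brightness values and flags. A further deposited table holds log2 values that the authors quantile normalized in GeneSpring. That table correlated with each array's scanner values (r = 0.9996 to 0.9998 over probes), its median was 4.95 on every array, dim values share a floor, and it served as an alternative.

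Control and non-uniform spots were left out, intensities below 1 were set to 1, log2 values of a probe's spots were averaged, and arrays were quantile normalized. Probes were named by RefSeq accession with the GRCh38.p14 gene table, and gene coordinates were not used. A probe counted as detected where its signal was flagged positive, significant and well above background for at least 50% of its spots, since the methods do not name the columns. The 23945 probes detected on at least 3 of 6 arrays were tested with limma 3.58.1 (R 4.3.3), two-sided, with Benjamini-Hochberg adjustment over all of them. Where a gene had several tested probes, the brightest stood for it. For a probe well above background on no array of a group, the fold is a bound against, on each array of that group, the higher of the detection limit and the probe's own signal. At 3 arrays a group, an exact permutation test cannot give a p below 0.1. The number of arrays limits the precision.

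The genes and lists were chosen with earlier results of these data known. All 10 genes were named, every called gene of a pathway list or otherwise up to 3 with the lowest p, and the 3 genes most like LCK and CD4; 1 gene that the rule names is not reported here. Values of the marker genes, CD7 and CTLA4, the signals of CD247, and the differences of GRAP, RHOH and LIME1, were added outside that rule. Same-numbered samples did not deviate together (r = −0.087, −0.002 and −0.047), so the numbers were not used to pair them. The alternatives were 75th percentile scaling, no normalization, normexp (offset 50), the log2 table, other detection filters, a variance trend, dim signals raised to a floor, the methods' t-test, replicate and slide blocks, a fold of 2, the mean of a gene's probes, and each array left out.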

Additional observations from a re-analysis of the deposited data

How the results depend on the processing

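Over the alternatives tried, 164 of 180 differences of the 10 genes had the same sign and fell on the same side of 0.05 in unadjusted p, 5 came to pass it, 4 no longer passed it and 7 changed sign. Other detection filters, the floor, the variance trend, the methods' t-test and the replicate block left all 10 differences as they were. Their signs could therefore not change there, nor could those of genes with 1 tested probe when a gene's probes were averaged. The sign changes were in small differences: with 1 array left out LCK ran from −0.023 to 0.036 (−0.015 without IL-17A replicate 1 and −0.023 without control replicate 3) and CD3D from −0.24 to 0.054 (0.054 without IL-17A replicate 1 and 0.014 without control replicate 1), and ZAP70 was −0.0028 with 75th percentile scaling, −0.0073 with normexp and from −0.012 (without IL-17A replicate 3) to 0.13 with 1 array left out. The genes no longer passing were CD4 without normalization, CD3E with normexp, and CD8A and LAT with slide as a block, and CD3G was the one that came to pass. The count of the 10 genes called by limma, 1 as reported, was 0 with normexp (5 at an unadjusted p under 0.05), 0 with slide as a block (4 at an unadjusted p under 0.05), 0 at a fold of 2 (6 at an unadjusted p under 0.05), and 1 to 2 with 1 array left out. The count with a limma adjusted p under 0.05, 2 as reported, was 0 without normalization (5 unadjusted), 0 with normexp, 0 with slide as a block, 4 with probes detected on all 6 arrays, 4 with a variance trend, 4 with the mean of a gene's probes, 1 with the methods' t-test (LAT, and neither CD28 nor CD3E) and 0 to 1 with 1 array left out. With the replicate number as a block it was 0, although 6 genes had an unadjusted p under 0.05 and CD28 was still called; the block changed no other call of the 10 genes. The count of called pathway genes, 3 as reported, was 0 with normexp (23 at an unadjusted p under 0.05), 1 in the authors' log2 table, 0 at a fold of 2 (30 at an unadjusted p under 0.05) and 2 to 4 with 1 array left out. With slide as a block it was again 3, with CTLA4 (−1.23) in place of SH2D2A. The causes of these changes were not tested. CD2, CD3E, LCP2 and SKAP1 lay near the detection limit, which limits the precision of their values.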
